A study of Mus musculus with 9 samples.

Results

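The 84 olfactory receptor genes that the deposited tables place on mouse chromosome 11 were followed through 3 sorted cell populations. They were chosen as every symbol that starts with Olfr and has its locus on chromosome 11, and they are 84 of 1122 receptor symbols and of 21909 symbols in all. Poly-A RNA was taken from cells of the main olfactory epithelium, from mice of 4 weeks. Horizontal basal cells (HBC) were taken as positive for a phycoerythrin-labelled antibody to CD54, the product of Icam1. Globose basal cells and neuronal precursors (GBC) were positive for the Neurog1-EGFP reporter, and mature olfactory sensory neurons (mOSN) for OMP-ires-EGFP, both green fluorescent protein reporters. Strain, sex and the number of mice behind a sort are not given in the labels used here. Each population is 1 library, so differences rest on no replicates and carry no p-value. ScriptSeq reagents were used for HBC and an Illumina mRNA kit for both other libraries, and kit and population cannot be told apart wherever HBC is compared. The 3 samples of 5-hydroxymethylcytosine and the 3 of 5-methylcytosine were not analysed here.

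Olfactory receptors are G protein-coupled receptors that bind odorants on the cilia of sensory neurons. Their genes form the largest gene family of the mouse and lie in clusters on many chromosomes. Receptors are divided into class I and class II, and those outside the class I cluster of mouse chromosome 7 are class II. A mature neuron is known to express a single allele of a single receptor gene, and precursors are known to pass through a stage with low levels of several receptors. A level in a sorted population is therefore a product of how many cells chose the gene and how much of its RNA each cell holds. In bulk samples fewer cells of a type and less RNA per cell cannot be told apart.

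Levels are FPKM, fragments scaled to transcript length and library size, with the interval that the authors deposited. Those intervals imply 18123310 fragments in HBC, 18086991 fragments in GBC and 16515790 fragments in mOSN. The sort genes stood highest in their own libraries, with Icam1 at 136 FPKM in HBC, Neurog1 at 163 FPKM in GBC and Omp, the olfactory marker protein gene, at 1487 FPKM in mOSN. All 7 markers of mature sensory neurons were above 1 FPKM in all 3 libraries, with sums of 143 FPKM in HBC, 1063 FPKM in GBC and 8924 FPKM in mOSN. The 5 markers of immature neurons summed to 16.2 FPKM in HBC, 1334 FPKM in GBC and 210 FPKM in mOSN. Among them Dcx was higher in mOSN, at 70.9 FPKM, than in GBC, at 61.7 FPKM, and the others were highest in GBC. The 6 HBC markers summed to 1003 FPKM in HBC, 2.46 FPKM in GBC and 5.41 FPKM in mOSN, and the 7 GBC and precursor markers to 10.7, 417 and 2.86 FPKM. On the precursor list the stem cell marker Lgr5 had 0.303 FPKM in GBC, against 0.395 in HBC, and Kit had 1.15, against 5.30. The others on that list were highest in GBC. The 6 macrophage markers summed to 3542 FPKM in HBC, 2.46 FPKM in GBC and 1.90 FPKM in mOSN. The 5 markers of sustentacular cells, the supporting cells of the epithelium, summed to 1053 FPKM in HBC, 41.9 FPKM in GBC and 154 FPKM in mOSN. Of these, Cbr2 (881 FPKM in HBC), Ugt2a1 and Ermn were highest in HBC. Cyp2g1 and Sec14l3 were highest in mOSN, at 46.1 and 29.4 FPKM, against 11.1 and 22.5 in HBC. No marker on these lists was listed at 0.

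The 84 genes fell into 7 clusters when a gap of more than 500 kb between neighbours was taken as a boundary. On build mm9 the clusters start at 48.9 Mb (19 genes), 50.8 Mb (4 genes), 52.0 Mb (3 genes), 58.3 Mb (21 genes), 59.4 Mb (3 genes), 73.2 Mb (31 genes) and 87.7 Mb (3 genes). Most receptor genes have a single coding exon, and 70 of the 84 loci were shorter than 1200 bp. Symbols of 5 genes carry the pseudogene mark -ps. In the RefSeq table (GRCm38.p6) 80 symbols were matched, 78 of them as protein-coding.

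RefSeq windows from 250 bases before to 50 bases after the annotated gene start were found for 68 of the 84 genes. In 45 of these windows the annotated start reads ATG, so that the window lies around the coding start and not around a transcript start. Windows of 7 genes are printed because they carry the contrasts described below and were chosen after the values were seen. Olfr1 had the highest mOSN over GBC ratio of the 84 genes with 1 FPKM added to both levels, and Olfr378 lies in the same cluster but was higher in GBC. Olfr401 was at 0 in HBC, 1.80 FPKM in GBC and 0.0190 FPKM in mOSN, while Olfr402, the next gene along the chromosome, had 1.36 FPKM in mOSN, against 0.451 FPKM in GBC. Olfr1381 and Olfr1380 are neighbours with nearly the same window and with 1.27 and 1.46 FPKM in mOSN, against 0.977 and 1.10 FPKM in GBC, and Olfr330 holds the letters searched for as a site of Ebf (O/E) factors. Capitals mark every match to TAATTA, a core bound by homeodomain factors such as Lhx2, or to CCCNNGGG and CCCNNNGGG, searched on both strands. The windows lie at chr11:73399446-73399745 on the minus strand for Olfr1, chr11:73428428-73428727 minus for Olfr378, chr11:74121041-74121340 plus for Olfr401 and chr11:74154906-74155205 plus for Olfr402. They lie at chr11:49551499-49551798 plus for Olfr1381, chr11:49563673-49563972 plus for Olfr1380 and chr11:58534776-58535075 minus for Olfr330, all on GRCm38.p6.
Olfr1: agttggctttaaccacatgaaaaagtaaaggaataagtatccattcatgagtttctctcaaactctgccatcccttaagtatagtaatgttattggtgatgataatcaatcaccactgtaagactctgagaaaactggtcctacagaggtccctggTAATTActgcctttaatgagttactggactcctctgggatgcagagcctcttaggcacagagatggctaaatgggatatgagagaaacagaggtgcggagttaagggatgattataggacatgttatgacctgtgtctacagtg
Olfr378: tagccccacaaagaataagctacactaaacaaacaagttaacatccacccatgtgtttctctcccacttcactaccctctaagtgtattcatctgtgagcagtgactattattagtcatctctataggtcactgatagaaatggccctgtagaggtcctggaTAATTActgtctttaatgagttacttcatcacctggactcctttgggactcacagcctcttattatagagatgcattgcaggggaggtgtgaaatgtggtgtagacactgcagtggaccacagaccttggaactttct
Olfr401: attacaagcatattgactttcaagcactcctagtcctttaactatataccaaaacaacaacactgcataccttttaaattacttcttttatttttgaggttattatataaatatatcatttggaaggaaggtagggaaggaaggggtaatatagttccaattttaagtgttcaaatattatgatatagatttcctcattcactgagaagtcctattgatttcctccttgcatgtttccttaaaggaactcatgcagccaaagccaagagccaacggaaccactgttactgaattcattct
Olfr402: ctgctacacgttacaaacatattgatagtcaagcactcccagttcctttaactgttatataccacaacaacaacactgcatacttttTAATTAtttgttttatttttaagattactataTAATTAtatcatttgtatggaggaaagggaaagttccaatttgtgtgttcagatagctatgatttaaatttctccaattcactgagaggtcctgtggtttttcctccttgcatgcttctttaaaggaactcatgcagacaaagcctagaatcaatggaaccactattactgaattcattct
Olfr1381: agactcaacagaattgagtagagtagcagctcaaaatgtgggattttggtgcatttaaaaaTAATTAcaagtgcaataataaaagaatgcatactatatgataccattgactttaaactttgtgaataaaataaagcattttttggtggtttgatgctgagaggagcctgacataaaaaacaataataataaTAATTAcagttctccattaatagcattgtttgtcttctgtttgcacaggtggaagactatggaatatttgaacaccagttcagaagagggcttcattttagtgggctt
Olfr1380: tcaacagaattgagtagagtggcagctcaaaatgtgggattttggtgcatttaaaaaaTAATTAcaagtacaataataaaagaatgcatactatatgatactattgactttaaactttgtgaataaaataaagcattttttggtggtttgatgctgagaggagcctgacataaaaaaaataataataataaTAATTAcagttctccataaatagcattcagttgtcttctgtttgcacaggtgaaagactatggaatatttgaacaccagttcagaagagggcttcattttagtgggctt
Olfr330: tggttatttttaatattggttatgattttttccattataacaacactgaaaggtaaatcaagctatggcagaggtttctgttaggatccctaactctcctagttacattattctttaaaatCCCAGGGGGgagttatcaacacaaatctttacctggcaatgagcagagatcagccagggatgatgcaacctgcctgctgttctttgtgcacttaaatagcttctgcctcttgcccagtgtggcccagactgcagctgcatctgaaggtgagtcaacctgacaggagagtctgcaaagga

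In global alignments the windows of Olfr1381 and Olfr1380 shared 94.7% of their columns, those of Olfr401 and Olfr402 shared 78.2%, and those of Olfr1 and Olfr378 shared 59.4%. The median over all 2278 pairs of the 68 windows was 47.6%. At least 70% was reached by 17 pairs, of which 16 were pairs within a cluster. The exception was Olfr1382, in the cluster at 48.9 Mb, with Olfr1373, in the cluster at 52.0 Mb, at 93.4%. TAATTA occurred in 14 of the 68 windows (20.6%), in 18.5% of 876 windows of other receptor genes and in 5.31% of 27025 windows of all genes. In the printed windows it starts at base -94 of Olfr1 and at base -88 of Olfr378, counted from the annotated start as 0. Olfr401 has no match, and Olfr402 has 2, at -163 and -131. CCCNNGGG occurred in 2 windows (2.94%), in 3.08% of the other receptor windows and in 13.4% of all windows. CCCNNNGGG occurred in 6 windows (8.82%), in 2.63% of the other receptor windows and in 12.6% of all windows. The 2 palindromes can overlap, and in Olfr330 both start at -129. A match describes letters only.

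Receptor genes resemble one another in sequence, and fragments can match several of them. An interval that rests on whole fragments gives a whole number of implied fragments, and among values of at most 100 fragments a tolerance of 0.03 was applied. In GBC 20 of 80 such member values were whole (25%), against 69.7% of all symbols with a single complete row. In mOSN 15 of 56 were whole (26.8%), against 69.4% of all symbols, and in HBC 25 of 39 (64.1%), against 78.4%. How the authors counted fragments that match several receptor genes is not stated in the labels or headers, and its part in these values was not tested. Olfr401 in mOSN rested on 0.125 implied fragments, Olfr385 in mOSN on 0.148 and Olfr382 in GBC on 0.0465. Olfr1381 and Olfr1380 had equal implied fragments in HBC, 0.0744 each. The levels of pairs with near-identical windows, Olfr1381 with Olfr1380, Olfr1382 with Olfr1373 and Olfr331 with Olfr325, are uncertain. Transcripts were not compared and 16 members have no window, so these pairs need not be the only uncertain ones. Olfr1377 and Olfr51, with windows 59.0% alike, each had 0.113 implied fragments in HBC. The locus given for Olfr56 overlaps rows of 4 other genes, Olfr1396 among them, and since strand handling is not stated its level and that of Olfr1396 are uncertain too.

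Receptor RNA of this chromosome was lowest in HBC, intermediate in GBC and highest in mOSN. The 84 genes summed to 7.26 FPKM in HBC, 138 FPKM in GBC and 384 FPKM in mOSN, on 235, 2864 and 7608 implied fragments. The median gene was listed at 0 in HBC and had 1.22 FPKM in GBC and 3.51 FPKM in mOSN. A level of 1 FPKM or more was found for 0 members in HBC, 50 members in GBC and 64 members in mOSN, and one of 5 FPKM or more for 0, 3 and 28. The libraries summed to 169662 FPKM in HBC, 183744 FPKM in GBC and 238529 FPKM in mOSN. Rescaled to a common, larger sum, 17 members in HBC, 82 members in GBC and 79 members in mOSN reached 1. That cut lies below 1 FPKM as deposited. A cut of 0.1 FPKM as deposited was reached by 83 members in GBC and 81 members in mOSN. Median-of-ratios scaling at 1 FPKM gave 46 in GBC and 63 in mOSN. The order of GBC and mOSN by this count therefore depends on the cut. At least 3 implied fragments stood behind 25 members in HBC, 81 members in GBC and 79 members in mOSN. No member row had a failed or low-data status.

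**Figure D1:**
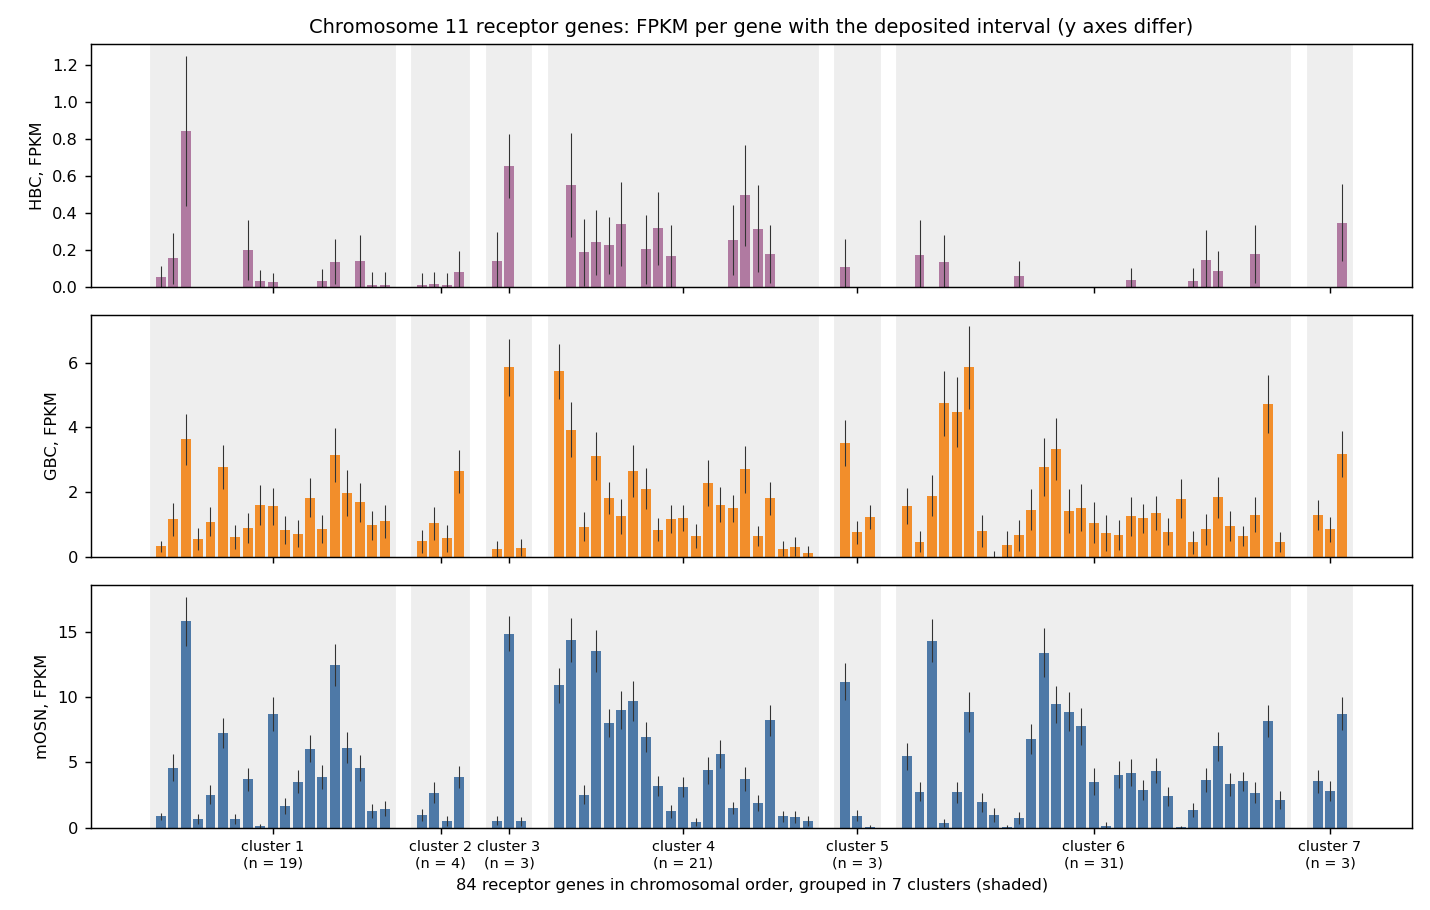
FPKM of each of the 84 receptor genes in chromosomal order, with HBC in the upper panel, GBC in the middle and mOSN in the lower panel, on separate y axes; bars are the level, thin lines the deposited interval, and shaded blocks the 7 clusters. Levels reach 0.843 FPKM in HBC, 5.85 FPKM in GBC and 15.8 FPKM in mOSN, and genes with high and low levels stand side by side within the large clusters.

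Receptor RNA was spread over many members in mOSN and GBC. The highest mOSN member, Olfr1395, had 4.50 times the median member, and in GBC the highest, Olfr380, had 4.79 times the median. The 10 highest genes held 34.0% of the summed FPKM in mOSN and 33.3% in GBC, and 17 genes made up the upper 50% in mOSN. The 2 sets of 10 shared 5 genes, Olfr1372-ps1, Olfr1395, Olfr222, Olfr30 and Olfr332. Ranked over the 84 members, levels in mOSN and GBC had a Spearman rho of 0.73, and those in GBC and HBC one of 0.20, as a description of libraries that share gene length and mappability.

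The 12 highest genes in mOSN lay between 9.01 and 15.8 FPKM and came from 5 of the 7 clusters, 5 of them from the cluster at 58.3 Mb. Olfr1395 (48961761 to 48962714, mm9) had 0.843 FPKM in HBC (interval 0.434 to 1.25), 3.63 in GBC (2.84 to 4.43) and the highest level, 15.8, in mOSN (13.9 to 17.7). The pseudogene symbol Olfr1372-ps1 (51968378 to 51971409) had 0.651 FPKM in HBC, 5.85 FPKM in GBC (4.96 to 6.74) and 14.8 FPKM in mOSN (13.5 to 16.2). Olfr332 (58303251 to 58304255) had 0.550 FPKM in HBC, 3.93 FPKM in GBC (3.08 to 4.78) and 14.4 FPKM in mOSN (12.7 to 16.1). These 3 genes were also the 3 highest in HBC, and their mOSN intervals overlapped.

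Olfr1 (73208578 to 73212997) was listed at 0 in HBC and had 1.90 FPKM in GBC (1.26 to 2.53) and 14.3 in mOSN (12.7 to 16.0). Olfr330 reached 13.5 FPKM in mOSN, against 3.11 in GBC, Olfr390 13.4, against 2.78, and Olfr1384 12.5, against 3.15. The mOSN intervals of these 4 genes overlapped one another as well. Olfr222 followed with 11.2 FPKM in mOSN, against 3.52 in GBC, and Olfr30 with 10.9, against 5.72. Olfr224 had 9.71 FPKM in mOSN, against 2.66 in GBC, Olfr391-ps 9.43, against 3.32, and Olfr328 9.01, against 1.26. In all 12 genes, chosen as the highest in mOSN, the mOSN interval lay above the GBC interval, a direction that this choice favours. Of the 5 pseudogene symbols, 4 reached 1 FPKM in mOSN, with a range over all 5 of 0.367 to 14.8 FPKM.

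Most members were higher in mOSN than in GBC, which shared a library kit. Ratios are log2((mOSN FPKM + 1)/(GBC FPKM + 1)), a scale on which changes of weakly expressed members come out too small. The ratio was above 0 in 74 of the 84 genes and below 0 in 10, with a median of 0.96 over all 84, against 0 over all 21909 symbols. Of 68 genes with at least 1 FPKM in either library, 41 had at least a 2-fold higher level in mOSN (background 22.4% of 12551 symbols) and 4 a level at least 2-fold lower (background 10.3%). As deposited, 64 of these members reached 1 FPKM in mOSN, against 50 in GBC, so this filter favoured mOSN. The count higher in mOSN was 40 with the libraries rescaled to a common sum, where the filter kept all 84 members, and 9 with a pseudocount of 5 FPKM. The median ratio of those 68 genes was 1.19, against 0.24 over the 12551 symbols. By the deposited intervals, mOSN lay above GBC in 56 of 84 genes (background 30.6% of 21549 symbols with 1 complete row) and below in 4 (background 23.9%), and the intervals overlapped in 24. These intervals cover counting error only.

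**Figure D2:**
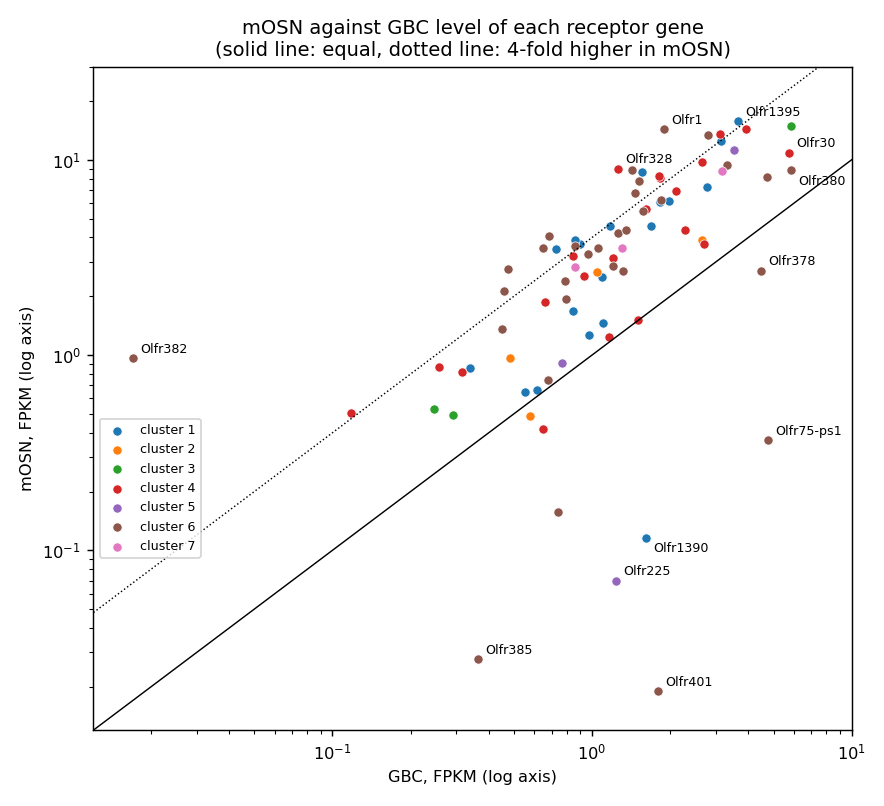
Level in mOSN (y, FPKM, log axis) against level in GBC (x, FPKM, log axis) for each of the 84 receptor genes, coloured by cluster; the solid line marks equal levels and the dotted line a 4-fold higher level in mOSN. Most genes lie between the lines, and 10 genes lie below the solid line, with Olfr75-ps1, Olfr1390, Olfr225, Olfr385 and Olfr401 farthest from it.

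At least a 4-fold difference on the same scale, with 5 FPKM in the higher library, was reached by 3 of 28 genes, all higher in mOSN (background 7.12% of 8678 symbols). All 28 reached 5 FPKM in mOSN and 3 of them also in GBC, so that a call in the other direction was hardly possible, and its count of 0 (background 3.16%) says nothing. The 3 were Olfr1, Olfr328 and Olfr392. Olfr1 was 7.55-fold higher in FPKM (log2 ratio 2.40), Olfr328 7.18-fold (2.15) and Olfr392 6.25-fold, with 8.89 FPKM in mOSN, against 1.42 in GBC (2.03). Next came Olfr390 at 1.93, Olfr1389 at 1.92, with 8.68 FPKM in mOSN, against 1.56 in GBC, and Olfr1395 at 1.86. With 1 conversion factor from fragments to FPKM per gene, 7 genes passed the 4-fold rule, and with a pseudocount of 0.1 FPKM 11 did. Median-of-ratios scaling left 1, and a pseudocount of 5 FPKM left 0. Olfr1393, which in mouse kidney is known as a receptor of the proximal tubule, was listed at 0 in HBC and had 1.09 FPKM in GBC (0.637 to 1.54) and 2.50 in mOSN (1.78 to 3.23).

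In 10 genes the level was higher in GBC than in mOSN, and in 4 of them the intervals did not overlap. Olfr75-ps1 (73218952 to 73223360), which RefSeq lists as a transcribed pseudogene, had 0.367 FPKM in mOSN (0.0504 to 0.683), against 4.74 in GBC (3.75 to 5.74), 12.9-fold more in GBC. Olfr401 (73934793 to 73935740) had 0.0190 FPKM in mOSN (upper bound 0.127), against 1.80 in GBC (1.20 to 2.40), where it rested on 36.4 implied fragments. Olfr225 (59426468 to 59427727) had 0.0699 FPKM in mOSN on 2 implied fragments, against 1.24 in GBC on 42. Olfr1390 (49154036 to 49154971) had 0.116 FPKM in mOSN on 2 implied fragments, against 1.61 in GBC on 27. The log2 ratios were -2.07 for Olfr75-ps1, -1.46 for Olfr401, -1.06 for Olfr225 and -1.23 for Olfr1390. Their direction held under all 5 alternative pseudocounts, scalings and conversions run on them. In HBC Olfr401 and Olfr225 were listed at 0, Olfr1390 had 0.0291 FPKM and Olfr75-ps1 0.133 FPKM.

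In the other 6 genes the intervals overlapped. Olfr378 had 2.70 FPKM in mOSN (1.92 to 3.48), against 4.47 in GBC (3.39 to 5.56), a log2 ratio of -0.57. Olfr395 had 0.156 FPKM in mOSN, against 0.737 in GBC, and Olfr385 had 0.0276, against 0.364. Olfr320 had 0.417 FPKM in mOSN, against 0.645 in GBC, Olfr51 had 0.489, against 0.577, and Olfr317 had 1.51 in both.

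**Figure D3:**
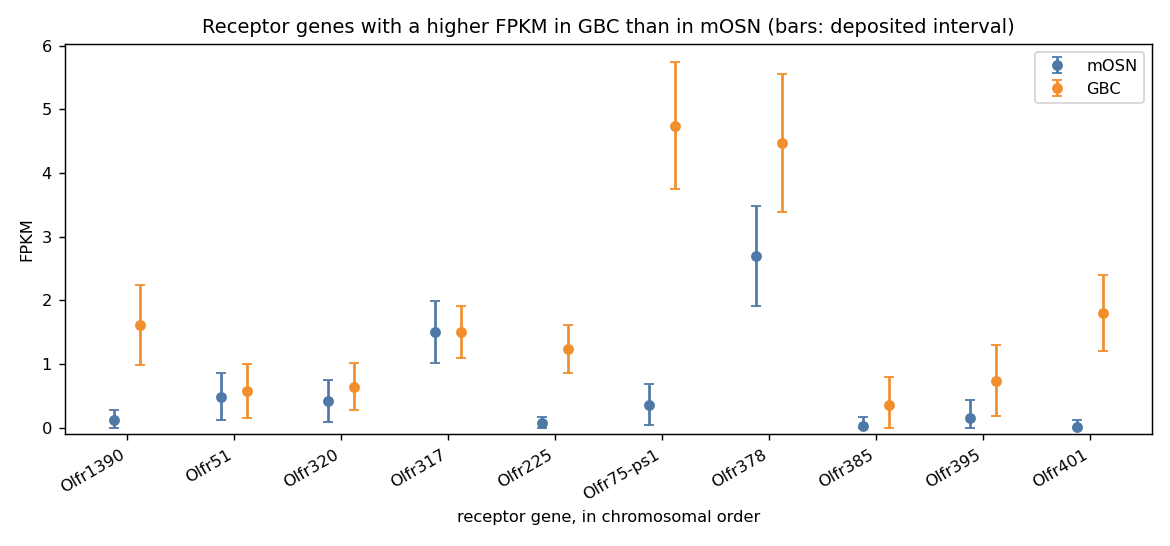
FPKM in mOSN (blue, left of each pair) and GBC (orange, right) of the 10 receptor genes whose level was higher in GBC, in chromosomal order, with the deposited interval as bars. The bars of Olfr1390, Olfr225, Olfr75-ps1 and Olfr401 do not overlap, and those of the other 6 do.

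Of the 10 genes, 5 lie in the cluster at 73.2 Mb, 2 in that at 58.3 Mb and 1 each in those at 48.9, 50.8 and 59.4 Mb. Olfr75-ps1 and Olfr378 are neighbours, and with Olfr380, the next gene, they held 3 of the 4 highest GBC levels of their cluster, the other being that of Olfr411. Olfr380 (73266777 to 73267712) had 8.84 FPKM in mOSN (7.31 to 10.4), against 5.85 in GBC (4.58 to 7.12), the highest GBC level of the 84 genes. Olfr411 had 8.17 FPKM in mOSN, against 4.73 in GBC. The gene before the run, Olfr1, had the highest ratio of the 84 with the pseudocount of 1 FPKM, and its neighbour Olfr75-ps1 the lowest. With a pseudocount of 0.1 FPKM Olfr401, at -4.00, lay below Olfr75-ps1, at -3.38, so that these extremes depend on the pseudocount. Over 77 adjacent pairs within clusters the ratios differed by a median of 0.66 on the log2 scale, against 0.73 over 784 pairs that were not adjacent. For the level in mOSN the same medians were 0.95 and 1.12 in log2(FPKM + 1), and for GBC 0.48 and 0.60.

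The 3 large clusters held shares of receptor RNA in GBC and mOSN close to their shares of the genes. The cluster at 48.9 Mb (48864235 to 49378360, Olfr56 to Olfr1380) held 22.6% of the genes and 22.4% of their summed FPKM in HBC, with 19.9% in GBC and 22.3% in mOSN. Among its 19 members 15 reached 1 FPKM in mOSN, against 11 in GBC. The 2-fold rule called 11 of 16 measured members higher in mOSN and 1, Olfr1390, lower, beside backgrounds of 22.4% and 10.3%. Its median ratio was 1.13. Olfr1395 was its highest gene in all 3 libraries.

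The 4 genes at 50.8 Mb (50782522 to 50841447) and the 3 genes at 52.0 Mb (51958095 to 52027489) summed to less. Olfr1378, Olfr1377, Olfr51 and Olfr54, at 50.8 Mb, summed to 7.996 FPKM in mOSN, against 4.74 in GBC, and neither of the 2 measured ones passed the 2-fold rule. Olfr54 led them with 3.86 FPKM in mOSN, against 2.64 in GBC, with overlapping intervals. At 52.0 Mb the pseudogene symbol Olfr1372-ps1 stood between Olfr1373 and Olfr1371, which had 0.531 and 0.493 FPKM in mOSN, against 0.246 and 0.291 in GBC.

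The cluster at 58.3 Mb (58268417 to 58655544, Olfr30 to Olfr311) held 25% of the genes, with 28.7% of the summed FPKM in mOSN and 26.7% in GBC. Its share in HBC was 47.5%, on levels of at most 0.550 FPKM. Of its members 9 reached 5 FPKM in mOSN, against 1, Olfr30, in GBC. Olfr30 and Olfr332, the first genes, had 10.9 and 14.4 FPKM in mOSN, against 5.72 and 3.93 in GBC. The last genes, Olfr313, Olfr312 and Olfr311, had 0.868, 0.815 and 0.506 FPKM in mOSN, against 0.256, 0.317 and 0.118 in GBC.

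At 59.4 Mb (59384284 to 59427727) the 3 members stood far apart in mOSN. Olfr222 had 11.2 FPKM in mOSN (9.73 to 12.6), against 3.52 in GBC (2.82 to 4.22). Olfr223 had 0.906 in mOSN, against 0.766 in GBC, and Olfr225 was among the genes higher in GBC.

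The cluster at 73.2 Mb (73164361 to 74179111, Olfr20 to Olfr412) was the longest, at 1015 kb, and held 36.9% of the genes, 35.6% of the summed FPKM in mOSN and 37.4% in GBC. Its share in HBC was 11.4%, with 23 of 31 genes listed at 0. The 2-fold rule called 17 of 27 measured members higher in mOSN and 2, Olfr75-ps1 and Olfr401, lower, beside the same backgrounds of 22.4% and 10.3%, and the median ratio over all 31 was 1.13. On the scale with 1 FPKM added, its ratios ran between -2.07 for Olfr75-ps1 and 2.40 for Olfr1. The run from Olfr389 to Olfr393 had 5 adjacent genes between 6.78 and 13.4 FPKM in mOSN, against 1.42 to 3.32 in GBC. At 87.7 Mb (87702461 to 87728505) all 3 genes were higher in mOSN, Olfr462 with 3.53 FPKM, against 1.304 in GBC, Olfr463 with 2.83, against 0.859, and Olfr464 with 8.72, against 3.18.

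**Figure D4:**
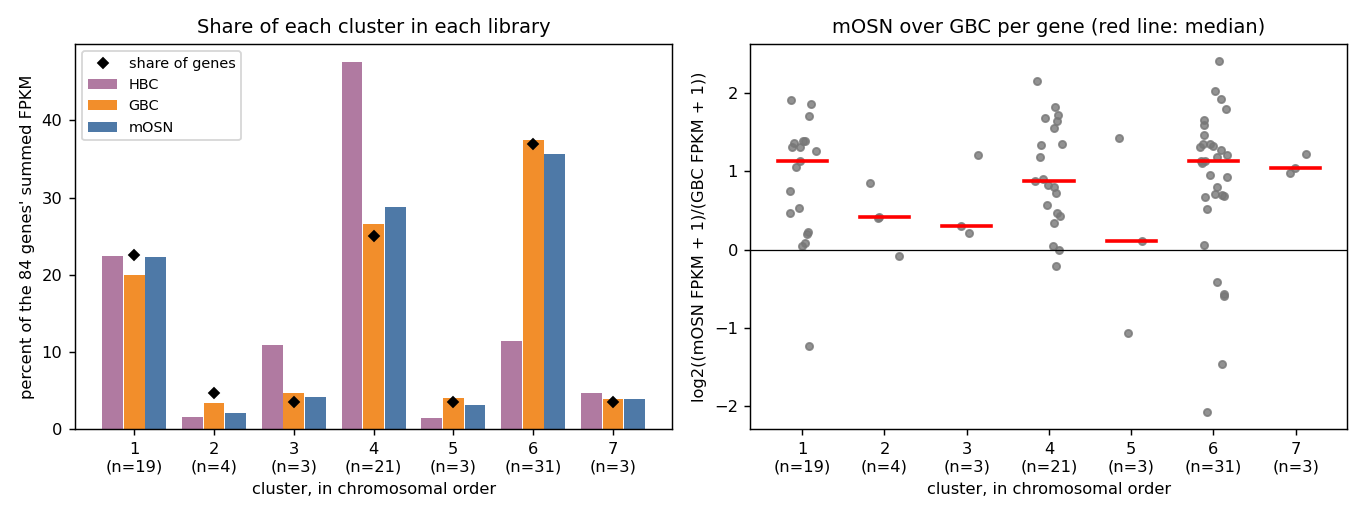
Left, share of the summed FPKM of the 84 genes held by each of the 7 clusters in HBC, GBC and mOSN (bars, percent), with the share of the genes as diamonds; right, log2((mOSN FPKM + 1)/(GBC FPKM + 1)) of each gene (points) with the cluster median (red line). Shares of the 3 large clusters in GBC and mOSN lie close to their shares of the genes. Cluster 2, at 50.8 Mb, holds 4.76% of the genes, 3.45% of the GBC sum and 2.08% of the mOSN sum. In HBC cluster 4, at 58.3 Mb, holds 47.5%.

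In HBC no member reached 1 FPKM and 45 of 84 were listed at 0, and a value of 0 shows only that the member was not detectable at this depth. The highest were Olfr1395 with 0.843 FPKM on 17 implied fragments, Olfr1372-ps1 with 0.651 FPKM on 57 and Olfr332 with 0.550 FPKM on 15. Olfr316 had 0.494 FPKM on 13 implied fragments and Olfr464 0.345 FPKM on 11. All 84 members had a higher FPKM in mOSN than in HBC and in GBC than in HBC. In each comparison the intervals lay apart for 77 members and overlapped for 7. Of 21549 symbols with 1 complete row, 41.4% lay apart and higher in mOSN than in HBC, and 28.1% lower. For GBC against HBC these backgrounds were 42.5% and 27.2%. The 2-fold rule called 63 of 64 measured members higher in mOSN than in HBC (background 40.4%), and 46 of 50 higher in GBC than in HBC (background 34.6%). These counts were nearly fixed by the filter, since no member reached 1 FPKM in HBC and each passed only through the library where it was high. The median ratios over all 84 members were 2.03 for mOSN over HBC and 1.06 for GBC over HBC. Both comparisons share the HBC library and its kit. Summed FPKM in HBC was 1.89% of that in mOSN for the 84 genes, 1.14% for the other receptors, 4.82% for Omp and 1.60% for the 7 mature neuron markers. The part of mature neurons among the sorted HBC in these values was not tested.

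Summed FPKM in GBC as a percentage of mOSN was 35.8% for the 84 genes, 28.7% for Omp and 11.9% for the 7 mature neuron markers. It was 21.1% for the other receptors. The part of mature neurons in the GBC receptor levels was not tested. A list of 24 genes of receptor transport, signalling and control was set beside the receptors. Of the 23 found, 11 passed the 2-fold rule as higher in mOSN than in GBC and 2, Ldb1 and Tshz1, as lower, beside backgrounds of 22.4% and 10.3%. The olfactory G protein subunit gene Gnal had 1141 FPKM in mOSN, against 157 in GBC, and its exchange factor Ric8b had 437, against 40.03. Adcy3, the cyclase of odorant signalling, had 547 FPKM in mOSN, against 32.8 in GBC. The channel genes Cngb1, Cnga4 and Ano2 had 114, 264 and 137 FPKM in mOSN, against 6.72, 19.4 and 13.2 in GBC. The receptor chaperone genes Rtp1 and Rtp2 had 428 and 299 FPKM in mOSN, against 108 and 97.2 in GBC, chosen here after their values were seen. The median ratio over the 23 genes was 0.93, and the factor gene Lhx2, also chosen after the values were seen, had 110 FPKM in mOSN, against 169.7 in GBC.

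Genes that are not receptors but have a row inside the clusters were few. Of 11 such genes, 4 reached 1 FPKM in HBC, 3 did so in GBC and 3 did so in mOSN. None of the 3 measured ones passed the 2-fold rule between mOSN and GBC. Mgat1, an N-glycan glycosyltransferase gene in the cluster at 48.9 Mb, had 14.1 FPKM in HBC, 5.41 FPKM in GBC and 11.5 FPKM in mOSN. The log2 ratio of Mgat1, mOSN over GBC, was 0.96 with 1 FPKM added and 1.07 with 0.1 FPKM added. Zfp62, a zinc finger gene of the same cluster, had 3.67 FPKM in HBC, 9.02 FPKM in GBC and 12.6 FPKM in mOSN. In the cluster at 58.3 Mb Fam183b had 4.85 FPKM in mOSN, against 5.75 in GBC, and the ubiquitin ligase gene Trim58 0.0153, against 0.199. The zinc finger genes Zfp616 and Zfp735, which lie in the cluster at 73.2 Mb, were listed at 0 in mOSN and had 0.120 and 0.0523 FPKM in GBC.

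Set beside the 1038 other receptor symbols, the chromosome 11 genes were similar in mOSN and higher in GBC. In mOSN their median was 3.51 FPKM, against 3.66 for the others, and 76.2% reached 1 FPKM, against 84%. In GBC their median was 1.22 FPKM, against 0.725, and 59.5% reached 1 FPKM, against 37.6%. The sum in mOSN was 2.79 times that in GBC for the 84 genes and 4.74 times for the others, and the median ratios were 0.96 and 1.34. At the 4-fold rule 3 of 28 members compare with 196 of 391 other receptors. With 1 library per population no test of these differences was possible. Among the 12 chromosomes with at least 20 receptor symbols, chromosome 11 ranked 4 by median level in GBC, 8 by median level in mOSN and 10 by median ratio. Chromosomes 1 and 6 had GBC medians of 1.301 and 1.52 FPKM, and chromosome 14 had the highest mOSN median, 7.68 FPKM, against 1.32 FPKM in GBC.

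**Figure D5:**
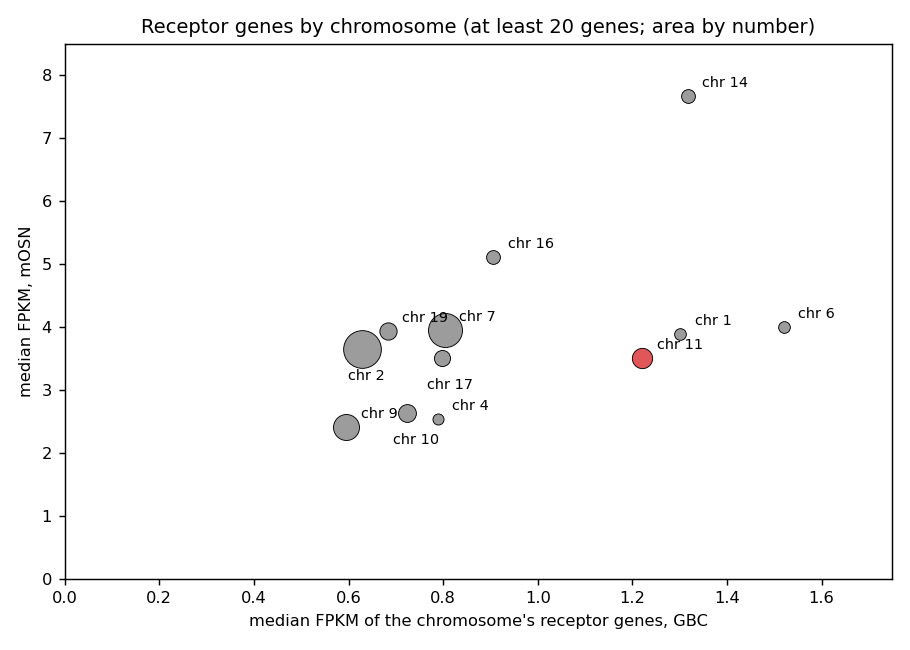
Median FPKM of receptor genes in mOSN (y) against GBC (x) for the 12 chromosomes with at least 20 receptor symbols; the area of a point follows the number of genes and chromosome 11 is red. Chromosome 11 lies at 1.22 FPKM in GBC and 3.51 FPKM in mOSN, left of chromosomes 1, 6 and 14 and right of the other 8.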

How the data were processed

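RNA libraries of 3 sorted populations were used, 1 each, grouped by sample title. The authors deposited FPKM per gene with an interval and a status field, per the file headers. According to the submitters' processing notes, Bowtie, TopHat and Cufflinks were used on build mm9. Versions, annotation, strand handling and the treatment of fragments that match several loci are not stated in those sources. Starts were raised by 1 to count from 1. Symbols on several rows (222, no member among them) were summed. Fragments behind a level were implied by its interval, as the square of 2 FPKM over the distance to the upper bound, and such intervals cover counting error only.

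Ratios were log2 with a pseudocount of 1 FPKM. A gene was measured at 1 FPKM in either library and called at a 2-fold difference, or at a 4-fold difference with 5 FPKM in the higher library. With single libraries no test between populations was run. Call rules were tested on simulated data. The changes there were set in genes with levels above those of every member in GBC and HBC. That test therefore does not cover the levels of the members. Alternatives were other pseudocounts, filters, scalings, 1 conversion factor per gene, other row handling, leaving out pseudogene symbols, and other gaps. The members and lists were chosen with earlier results of these data known. The naming rule took the sort genes, the highest of each cluster, the 12 highest in mOSN, the 6 largest ratios, members higher in GBC, the 3 highest in HBC and 3 lowest in mOSN, up to 2 non-receptor genes per cluster and 6 of the fixed list. Members and list genes named beyond it were chosen after their values were seen. Gfy of the fixed list was not matched, and receptor proteins were not compared. Python 3.11.15, pandas 2.3.3 and numpy 2.4.6 were used.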

Additional observations from a re-analysis of the deposited data

How the results depend on the processing

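The median ratios kept their direction under every alternative run on them, at 0.43 to 1.41 for mOSN over GBC, 0.30 to 3.13 for GBC over HBC and 0.74 to 4.47 for mOSN over HBC. The clusters numbered 7 or, with a gap of 1 Mb, 6. In mOSN 60 to 79 members reached a cut of 1, with 79 after rescaling to a common sum. Rescaling to a common sum, where a cut of 1 lies below 1 FPKM as deposited, gave counts of 82 in GBC and 17 in HBC. Median-of-ratios scaling and 1 conversion factor per gene each gave a count of 1 at 1 FPKM in HBC. The mOSN over GBC ratio of sums was 2.15 with rescaling and 2.46 with median-of-ratios scaling. The count at 2-fold was 9 with a pseudocount of 5 FPKM and 25 with a 5 FPKM filter. The count at 4-fold was 11 and 0 with pseudocounts of 0.1 and 5 FPKM, 1 with median-of-ratios scaling and 7 with 1 conversion factor per gene. The cause was not tested. A 20 FPKM filter gave 0, since no member reaches that level. The median of measured symbols was 0.24 as deposited, -0.18 with rescaling, 0.08 with median-of-ratios scaling and -0.19 with 1 conversion factor. Members below 0 numbered 10 as deposited, 15 with rescaling, 13 with median-of-ratios scaling and 11 with 1 conversion factor, the last including the same 10. Under median-of-ratios scaling and 1 conversion factor the members called 2-fold lower in mOSN were the same 4. Rescaling, with its lower cut and smaller pseudocount in FPKM, added Olfr378, Olfr385 and Olfr395. Of 195 alternative ratios of named genes, 138 stayed within counting error, 57 did not, and 0 of those at least 2-fold changed direction. Depth limits what can be read from the lowest members, since the median member rested on 22.5 implied fragments in GBC. No paired analysis was possible because each population has 1 library.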

Other observations

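Median levels were set beside the letters in the windows. The 14 genes with TAATTA had a median of 1.41 FPKM in mOSN, against 3.65 FPKM for the 54 without, and 1.13 against 1.23 FPKM in GBC. The levels of both sets overlap, and Olfr1, with TAATTA, had 14.3 FPKM in mOSN. The 6 genes with CCCNNNGGG had a median of 9.30 FPKM in mOSN, against 2.84 FPKM for the 62 without, and 2.06 against 1.13 FPKM in GBC. Windows of neighbours resemble each other, so these genes are not independent, and 45 of the 68 windows lie around a coding start. Among the genes with CCCNNNGGG that was so for Olfr1385 only, and not for Olfr30, Olfr330, Olfr224, Olfr389 and Olfr392. The kind of annotated start and these letters were therefore not told apart. The values are a description with no test.

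Inside the cluster at 48.9 Mb the interferon-inducible GTPase genes Ifi47 and Tgtp2 had 6.29 and 1.26 FPKM in HBC, where the macrophage markers summed to 3542 FPKM. Both were listed at 0 in GBC, and Ifi47 had 0.0275 FPKM in mOSN, where Tgtp2 was listed at 0. Tgtp2 has 2 rows in the files, added up here, of which 1 (48870698 to 48877714, mm9) lies in the cluster. That row and Ifi47 overlap the locus given for Olfr56, which had 0.0544 FPKM in HBC. The part of macrophages in these values was not tested.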
